A study of Arabidopsis with 8 samples.

Results

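The genes of the chloroplast genome of Arabidopsis thaliana were followed across roots and shoots of 2 genotypes. They were chosen as every gene whose locus tag starts with ATCG and whose value was above 0 in at least 1 of the 8 RNA sequencing libraries, which gave 77 of the 25404 genes listed. Of the 77 genes, 73 code for proteins and 4 are ribosomal RNA genes. The 73 protein-coding entries stand for 65 different genes, because genes in the inverted repeat of the chloroplast genome are listed once for each copy.

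Root and shoot parts of seedlings aged 5 days were sequenced from Col-0, the wild type, and from OE-SAUR41, a line that overexpresses SAUR41, from the group of the SMALL AUXIN UP RNA genes. Each of the 4 combinations of genotype and tissue had 2 libraries, here called replicates 1 and 2. The promoter of the transgene, the number of lines and the growth conditions are not given in the labels used here. The labels do not say whether both libraries of a group were grown as separate cultures, and the spread that the p-values rest on may therefore be technical.

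Chloroplasts keep a small genome of their own, which holds core subunits of the photosynthetic complexes, the large subunit of Rubisco, and parts of the plastid's own ribosome and RNA polymerase. Other subunits of these complexes are encoded in the nucleus and imported. In plants the plastid genome is read by a bacterial-type RNA polymerase, whose core is encoded by the plastid rpo genes and which needs nuclear sigma factors, and by phage-type RNA polymerases encoded in the nucleus. Genes of photosynthesis depend mainly on the bacterial-type enzyme, while the rpoB operon and accD are known for being read by the phage-type enzyme. Roots hold non-green plastids, which carry the same genome but do not build thylakoids.

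Values are FPKM, fragments scaled by transcript length and by the number of mapped fragments, so they can be compared between genes per length, and each value is relative to the rest of its library. SAUR41 (AT1G16510) had 4.64 and 7.46 FPKM in the Col-0 roots, 7996 and 4670 FPKM in the OE-SAUR41 roots, 4.93 and 8.29 FPKM in the Col-0 shoots, and 10675 and 10248 FPKM in the OE-SAUR41 shoots. The labelled tissues were checked by markers. The 9 root markers summed to between 187 and 203 FPKM in the root libraries and between 14.4 and 20.5 FPKM in the shoot libraries. The 8 shoot markers summed to between 13.6 and 15.6 FPKM in roots and between 1853 and 3872 FPKM in shoots. Most of the shoot sum was LHCB2.1, a light-harvesting gene, with between 1739 and 3807 FPKM in shoots and between 1.89 and 3.97 FPKM in roots. Of the 8 shoot markers 7 were called lower in roots in both genotypes, and KAN, with between 7.34 and 9.66 FPKM in roots and between 1.18 and 5.38 FPKM in shoots, was called higher. The depth of the libraries is unknown, and the sources used here do not say whether polyadenylated RNA was selected.

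Chloroplast genes took a small share of the summed FPKM in roots and a larger one in shoots. The 77 genes summed to 263 and 1388 FPKM in Col-0 root replicates 1 and 2, and to 411 and 1011 FPKM in OE-SAUR41 root replicates 1 and 2. They summed to 16617 and 11687 FPKM in the Col-0 shoots and to 13103 and 12952 FPKM in the OE-SAUR41 shoots. Every shoot library lay above every root library, and within each root genotype replicate 2 lay above replicate 1. As shares of all FPKM these sums were 0.0391%, 0.229%, 0.0653% and 0.160% in the roots and 2.45%, 1.51%, 1.73% and 1.71% in the shoots, in the same order. Most of the shoot sum came from the 2 copies each of rrn16 and rrn23, the RNAs of the small and large subunit of the plastid ribosome. The 4 rRNA entries summed to between 152 and 722 FPKM in roots and between 10305 and 14586 FPKM in shoots. The protein-coding entries alone summed to 111, 666, 190 and 617 FPKM in the roots, and to 2031, 1381, 1115 and 1115 FPKM in the shoots. The 118 genes of the mitochondrial genome were ordered the other way round, with sums between 1044 and 4188 FPKM in roots and between 293 and 376 FPKM in shoots. In bulk tissue, fewer cells of a type and less RNA per cell cannot be told apart.

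**Figure D1:**
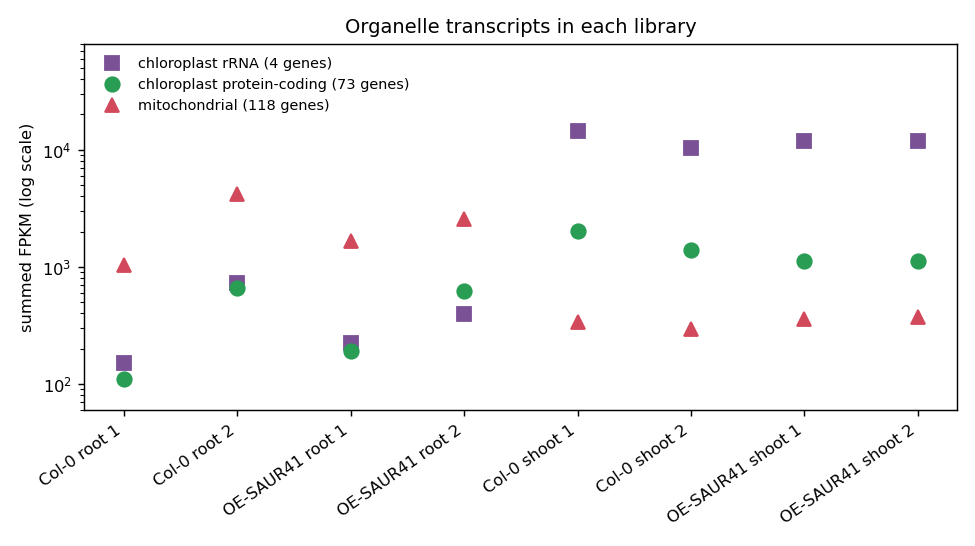
Summed FPKM, on a log axis, of the 4 chloroplast rRNA entries (squares), the 73 chloroplast protein-coding entries (circles) and the 118 mitochondrial genes (triangles) in each of the 8 libraries. The chloroplast rRNA sum lies between 152 and 722 FPKM in roots and between 10305 and 14586 FPKM in shoots, and in both root genotypes all 3 sums are higher in replicate 2 than in replicate 1.

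The 2 root libraries of each genotype stood far apart in their chloroplast genes. In Col-0 roots, 73 of the 77 chloroplast genes were higher in replicate 2 than in replicate 1, against 38.7% of all genes tested. The median ratio of replicate 2 to replicate 1 was 6.06 over the 67 chloroplast genes listed in both. In OE-SAUR41 roots, 71 of the 77 genes were higher in replicate 2, against 33% of all genes tested, with a median ratio of 3.01. Mitochondrial genes moved the same way in these libraries, with median ratios of 3.30 in Col-0 roots and 1.59 in OE-SAUR41 roots, while nuclear genes had median ratios of 0.953 and 0.898. In Col-0 shoots the order was reversed, with 66 of 77 chloroplast genes lower in replicate 2, against 75% of all genes tested. The median ratio there was 0.660 for chloroplast genes and 0.583 for nuclear genes. The OE-SAUR41 shoots had a median ratio of 1.06 for chloroplast genes. The part of RNA quality, dissection or library preparation in these differences was not tested.

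**Figure D2:**
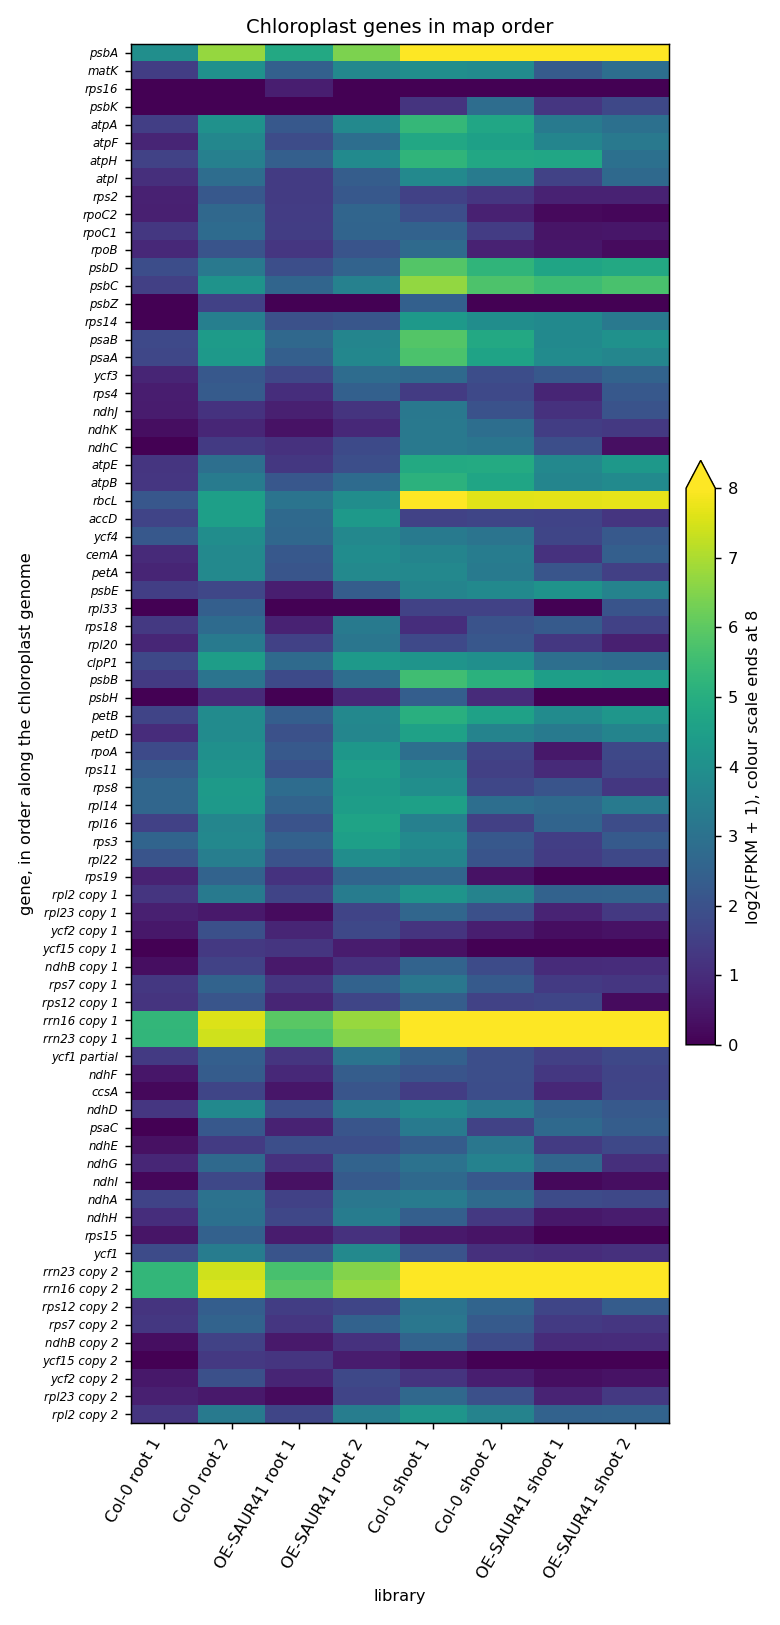
Level of each of the 77 chloroplast entries (rows, in map order) in the 8 libraries (columns), as log2(FPKM + 1) with the colour scale ending at 8. The rrn16, rrn23, psbA and rbcL rows are the brightest in shoots, and most rows are brighter in replicate 2 than in replicate 1 of each root genotype.

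Which chloroplast genes differ between root and shoot was tested in each genotype with limma, fitted to log2(FPKM + 1) over all 19863 genes that reached 1 FPKM in 2 or more libraries. Of the 77 chloroplast genes, 75 passed this filter. The others were psbH, which codes for a small photosystem II subunit and reached 1 FPKM only in Col-0 shoot replicate 1, at 4.27 FPKM, and rps16, a ribosomal protein gene listed only in OE-SAUR41 root replicate 1, at 0.596 FPKM. Folds on this scale understate the change of genes with low values. The genes ndhK and psbK stayed under 1 FPKM in every root library and passed the filter through their shoot values alone. They could therefore only come out lower in roots, and their calls below carry this limit.

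In Col-0, 27 of the 75 tested chloroplast genes were called, at an adjusted p under 0.05, and all 27 were lower in roots. Over all tested genes 65.9% were called, 13.2% lower in roots and 52.7% higher. The median log2 fold change, root over shoot, was -1.12 for the chloroplast genes and 0.91 for all tested genes. Both Col-0 root libraries lay below both Col-0 shoot libraries for 35 of the 77 genes, against 16.4% of all tested genes, and above them for 0 of 77, against 67.5%. The calls fell unevenly on the complexes. They covered 4 of 4 rRNA entries, 6 of 7 photosystem II genes, 1 of 1 Rubisco gene, 2 of 3 photosystem I genes, 1 of 3 cytochrome b6f genes, 5 of 6 ATP synthase genes and 6 of 12 NDH entries. Of the 22 ribosomal protein entries 2 were called, both of them copies of rpl23, and 0 of 4 RNA polymerase genes and 0 of 13 other genes were called by limma, with 0 and 0 at an unadjusted p under 0.05. Without Col-0 root replicate 1 the calls were 13 lower and 4 higher in roots, against 10.7% and 29.0% of all tested genes. With library weights 8 were called lower and 0 higher, against 10.3% and 34.6%.

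In OE-SAUR41, 16 of the 75 genes were called, 12 lower and 4 higher in roots. Over all tested genes 77.8% were called, 11.8% lower and 66% higher in roots. The median log2 fold change came to 0.11 for the chloroplast genes and 1.22 for all tested genes. Both root libraries lay below both shoot libraries for 20 of 77 genes, against 16.4% of all tested genes, and above them for 22 of 77, against 76.5%. The split of the calls moved with the scaling, to 0 higher and 21 lower with TMM scaling, against 28.6% and 25.3% of all tested genes, and to 0 higher and 25 lower with quantile normalization, against 33.8% and 22.6%. These scalings brought the median of all genes from 1.22 to 0.14 and 0.25. They brought it in Col-0 from 0.91 to 0.09 and 0.22, where 37 chloroplast genes were called lower and 0 higher under either, where 21.7% and 21.4% of all genes were called lower. The 4 calls higher in roots were not made when OE-SAUR41 root replicate 2, OE-SAUR41 shoot replicate 1 or OE-SAUR41 shoot replicate 2 was left out. The number of calls was 10 without OE-SAUR41 shoot replicate 1 and 9 without OE-SAUR41 shoot replicate 2, where 61.5% and 62.4% of all tested genes were called. It was 27 without Col-0 root replicate 1 and 26 without Col-0 root replicate 2, where 73.1% of all were called in either case. The 12 genes called lower in OE-SAUR41 roots were all called lower in Col-0 roots too, namely the 4 rRNA entries, psbA, psbB, psbC, psbD, psbE, psbK, rbcL and atpE. The difference between the genotypes in these tissue differences is the interaction given further on, which called 0 chloroplast genes.

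**Figure D3:**
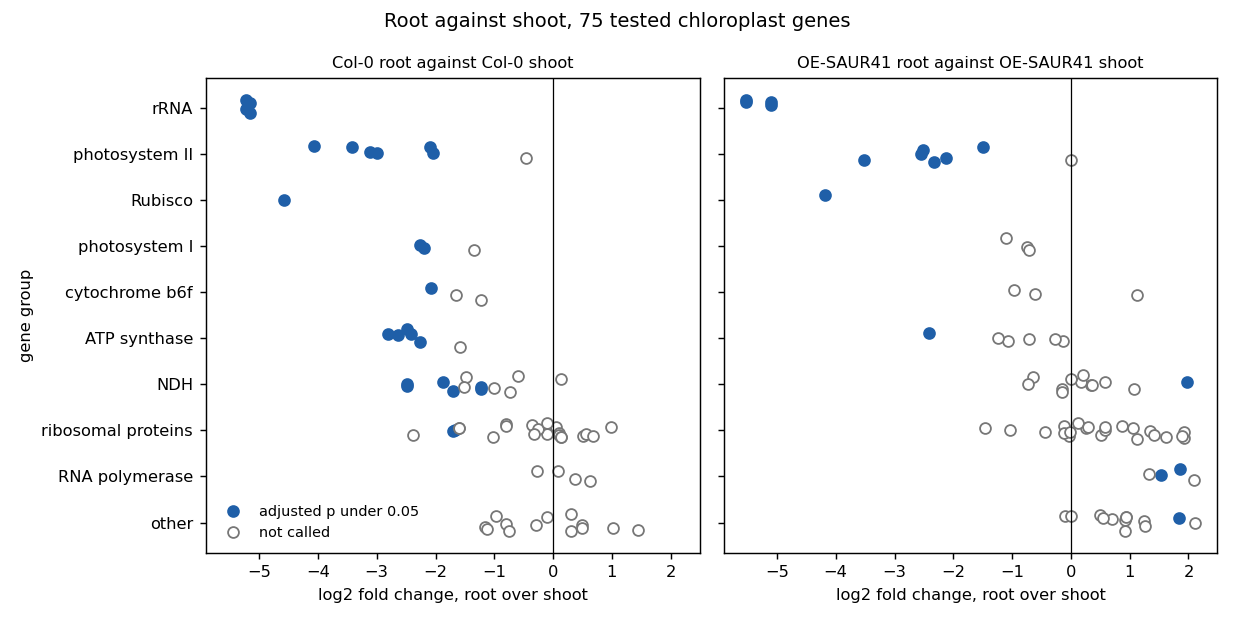
Log2 fold change, root over shoot, of the 75 tested chloroplast genes in Col-0 (left) and OE-SAUR41 (right), each point a gene, arranged by complex; filled points were called at an adjusted p under 0.05. The rRNA genes, rbcL and psbA lie farthest to the left in both genotypes, and the 4 filled points to the right of 0 are ndhH, rpoC2, rpoC1 and ycf1 in OE-SAUR41.

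The ribosomal RNA genes had the largest tissue difference. The gene rrn16 copy 1 (ATCG00920, chloroplast positions 101012 to 102502 of TAIR10) had 38.1 and 191 FPKM in Col-0 roots and 60.4 and 107 FPKM in OE-SAUR41 roots. It had 3827 and 2713 FPKM in Col-0 shoots against 2819 and 2777 FPKM in OE-SAUR41 shoots, so that no root library came near a shoot library. Its log2 fold change, root over shoot, was -5.22 ± 0.66 (SE, limma adjusted p = 0.000394) in Col-0 and -5.10 ± 0.66 (SE, limma adjusted p = 0.000417) in OE-SAUR41. The gene rrn23 copy 1 (ATCG00950, 104691 to 107500) had 37.9, 170, 50.5 and 90.3 FPKM in the roots and 3466, 2441, 3175 and 3142 FPKM in the shoots. Its log2 fold change came to -5.16 ± 0.62 (SE) in Col-0 and -5.53 ± 0.62 (SE) in OE-SAUR41. The second copies, rrn23 copy 2 (ATCG01180, 131149 to 133958) and rrn16 copy 2 (ATCG01210, 136147 to 137637), had values within 1% of the first in all 8 libraries. Reads cannot be assigned to either copy of such a pair, so the copies are not independent measurements.

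Photosystem II splits water in the light, and in each shoot library its gene psbA had the highest level of the chloroplast protein-coding genes, followed by rbcL and then psbC. The gene psbA (ATCG00020, 383 to 1444) encodes the D1 reaction centre protein, which is replaced rapidly in the light. Among roots it had 14.6 and 105 FPKM in Col-0 against 27.5 and 84.2 FPKM in OE-SAUR41, and among shoots it had 787 and 589 FPKM in Col-0 against 572 and 561 FPKM in OE-SAUR41. The root libraries spread over a wide range and still stayed below every shoot library. The log2 fold change came to -4.07 ± 0.84 (SE, limma adjusted p = 0.00452) in Col-0 and -3.52 ± 0.84 (SE, limma adjusted p = 0.00647) in OE-SAUR41. The antenna genes psbC (CP43, ATCG00280) and psbB (CP47, ATCG00680, 72371 to 73897) had 103 and 53.2 FPKM and 46.0 and 33.6 FPKM in Col-0 shoots. In Col-0 roots psbC had 1.84 and 16.3 FPKM and psbB had 1.55 and 7.53 FPKM. Their log2 fold changes in Col-0 were -3.42 ± 0.77 and -3.11 ± 0.58 (SE). For psbD, which encodes the D2 reaction centre protein, the fold change was -2.99 ± 0.47 (SE) in Col-0 and -2.52 ± 0.47 (SE) in OE-SAUR41. The files place psbD and psbC at 1 shared locus, 32711 to 35141, so the division of reads between them is uncertain. The gene psbK, a small subunit and the shortest protein-coding gene listed, was not listed in any of the 4 root libraries and had 1.32, 6.27, 1.39 and 2.31 FPKM in the shoots.

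Rubisco fixes carbon dioxide, and rbcL (ATCG00490, 54958 to 56397) encodes its large subunit. It had 3.50, 22.1, 7.40 and 14.3 FPKM in the roots and 292, 200, 201 and 206 FPKM in the shoots. Its log2 fold change came to -4.58 ± 0.68 (SE, limma adjusted p = 0.000922) in Col-0 and -4.17 ± 0.68 (SE, limma adjusted p = 0.00126) in OE-SAUR41. The nuclear small subunit genes had a larger difference, with RBCS3B (AT5G38410) at 8.59, 14.9, 5.38 and 9.39 FPKM in roots and between 8251 and 15039 FPKM in shoots. Per length, rbcL lay below psbA in every library, at between 0.170 and 0.269 of its FPKM in roots and between 0.341 and 0.372 in shoots.

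Photosystem I, the cytochrome b6f complex and the ATP synthase followed in smaller steps. In photosystem I, psaB (ATCG00340, 37375 to 39579), a reaction centre gene, had 2.41 and 20.1 FPKM in Col-0 roots and 57.0 and 27.4 FPKM in Col-0 shoots. In OE-SAUR41 it had 5.57 and 11.4 FPKM in roots and 12.9 and 15.6 FPKM in shoots. The tissues did not overlap in either genotype, but the gap was narrow in OE-SAUR41, where the log2 fold change came to -0.75 ± 0.79 (SE, limma adjusted p = 0.403) against -2.26 ± 0.79 (SE, limma adjusted p = 0.0371) in Col-0. In the cytochrome b6f complex, which passes electrons between the photosystems, petB (ATCG00720, 74841 to 76292) was called in Col-0 at -2.08 ± 0.71 (SE), with 2.10 and 13.4 FPKM in roots and 32.4 and 22.7 FPKM in shoots. Among the ATP synthase genes the highest mean level belonged to atpH, the membrane ring subunit, and atpB and atpE, at 1 shared locus, were called in Col-0 at -2.63 ± 0.61 and -2.80 ± 0.53 (SE).

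The NDH complex carries cyclic electron flow around photosystem I. Its 12 entries were low throughout, at no more than 12.9 FPKM in any library, and ndhD had the highest mean. The gene ndhK (ATCG00430, 49257 to 49934) had 0.241, 0.800, 0.303 and 0.907 FPKM in roots and 8.47, 6.47, 1.72 and 1.53 FPKM in shoots, with a log2 fold change in Col-0 of -2.49 ± 0.30 (SE, limma adjusted p = 0.000335). Because it passed the filter through the shoots alone, the direction of this call was fixed beforehand. The gene ndhH (ATCG01110, 122011 to 123192) had another pattern, with 1.08, 6.69, 2.26 and 9.31 FPKM in roots and 4.34, 1.51, 0.437 and 0.519 FPKM in shoots. It was called higher in OE-SAUR41 roots, at 1.97 ± 0.74 (SE, limma adjusted p = 0.0403), and not in Col-0, at 0.13 ± 0.74 (SE, limma adjusted p = 0.885). Its call was lost with TMM scaling and quantile normalization, at adjusted p of 0.153 and 0.321.

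The genes of the plastid RNA polymerase were not called lower in roots in either genotype. The subunits rpoB, rpoC1 and rpoC2 stand next to each other on the genome, between 15938 and 26329, and rpoA lies apart, at 77901 to 78890, after a run of ribosomal protein genes. The gene rpoC2 (ATCG00170) had 0.613, 5.57, 1.71 and 5.13 FPKM in roots and 2.80, 0.666, 0.150 and 0.105 FPKM in shoots. The gene rpoC1 (ATCG00180) had 1.48, 5.93, 1.76 and 4.93 FPKM in roots and 4.67, 1.70, 0.378 and 0.402 FPKM in shoots. In OE-SAUR41 both root libraries lay above both shoot libraries for each of the 4 subunits, as they did for 76.5% of all tested genes. In that genotype the fit placed 66% of all tested genes significantly above the shoots, and their overall median log2 fold change was 1.22, so this direction is not particular to the subunits. There rpoC2 was called higher in roots at 1.85 ± 0.71 (SE, limma adjusted p = 0.0424) and rpoC1 at 1.54 ± 0.59 (SE, limma adjusted p = 0.0438), while rpoA at 2.10 ± 0.93 and rpoB at 1.32 ± 0.67 (SE) were not called, with limma adjusted p of 0.069 and 0.102. The calls of rpoC2 and rpoC1 were lost with TMM scaling, at adjusted p of 0.0978 and 0.184. In Col-0 the tissues overlapped for all 4 subunits, and the log2 fold changes were 0.62 for rpoA, -0.28 for rpoB, 0.08 for rpoC1 and 0.37 for rpoC2. With TMM scaling or quantile normalization the signs of rpoA, rpoC1 and rpoC2 in Col-0 turned negative.

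The ribosomal protein genes and the remaining genes went both ways between the tissues. Of the 22 tested ribosomal protein entries, 9 had a positive and 13 a negative log2 fold change in Col-0, with a median of -0.18, and 15 were positive in OE-SAUR41, with a median of 0.54. Their highest mean level was that of rpl14, with 5.20, 18.7, 4.87 and 21.1 FPKM in roots and 22.4, 6.48, 5.59 and 8.66 FPKM in shoots. The gene clpP1 (ATCG00670, 69910 to 71882), the plastid-encoded subunit of the Clp protease, had 2.32, 20.9, 5.85 and 18.9 FPKM in roots and 16.6, 14.9, 6.58 and 5.89 FPKM in shoots. The gene accD (ATCG00500, 57075 to 58541), a subunit of the acetyl-CoA carboxylase of fatty acid synthesis, had 2.11, 21.8, 5.67 and 18.8 FPKM in roots and 2.01, 2.19, 2.03 and 1.33 FPKM in shoots. It was the gene with the most positive value in Col-0, 1.44 ± 0.89 (SE, limma adjusted p = 0.177), and in OE-SAUR41, 2.11 ± 0.89 (SE, limma adjusted p = 0.0583), and was called in neither. The gene ycf1 (ATCG01130, 123884 to 129244), known for a part in protein import, had 2.52, 9.28, 3.19 and 12.7 FPKM in roots and 3.13, 1.14, 1.04 and 1.18 FPKM in shoots. It was called higher in OE-SAUR41 roots, at 1.85 ± 0.69 (SE, limma adjusted p = 0.0387), and the call was lost with TMM scaling at an adjusted p of 0.269.

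The make-up of the chloroplast mRNA differed between the tissues in every library. The root shares given next varied less between replicates than the levels did, where dividing by the sum removes any factor common to a library. Single genes could go the other way. In Col-0 roots psbE had 1.82 and 2.28 FPKM, but shares of 1.65% and 0.342%. Taken as a share of the summed FPKM of the 73 protein-coding entries, psbA made up 13.2%, 15.7%, 14.5% and 13.6% in the roots, 38.7% and 42.6% in the Col-0 shoots, and 51.3% and 50.3% in the OE-SAUR41 shoots. The share of rbcL was 3.15%, 3.32%, 3.90% and 2.32% in the roots and 14.4%, 14.5%, 18.1% and 18.5% in the shoots. The 8 photosystem II genes together held between 17.9% and 21.3% in roots and between 49.9% and 60.9% in shoots. The 4 RNA polymerase genes held 4.94%, 4.49%, 4.51% and 5.06% in the roots and 0.979%, 0.378%, 0.123% and 0.270% in the shoots. The 23 ribosomal protein entries held 34.7%, 25.5%, 24.0% and 31.2% in the roots and 9.30%, 6.43%, 5.06% and 5.32% in the shoots. The share of accD was between 1.90% and 3.27% in roots and between 0.099% and 0.182% in shoots. In all, 38 of the 73 entries had a larger share in each of the 4 root libraries than in any shoot library. They comprised 17 ribosomal protein entries, 4 RNA polymerase genes, 10 of the other genes, 4 NDH genes, petA, petB and atpI. The reverse held for psbA, psbB, psbC, psbK and rbcL, and 30 entries overlapped. A share falls when another gene's share grows, so these values are not independent of each other. The larger shares of psbA and rbcL in shoots lower the shares of the other entries there. The count of 38 is therefore no separate result about each entry, and genes outside the chloroplast genome give no background for it.

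**Figure D4:**
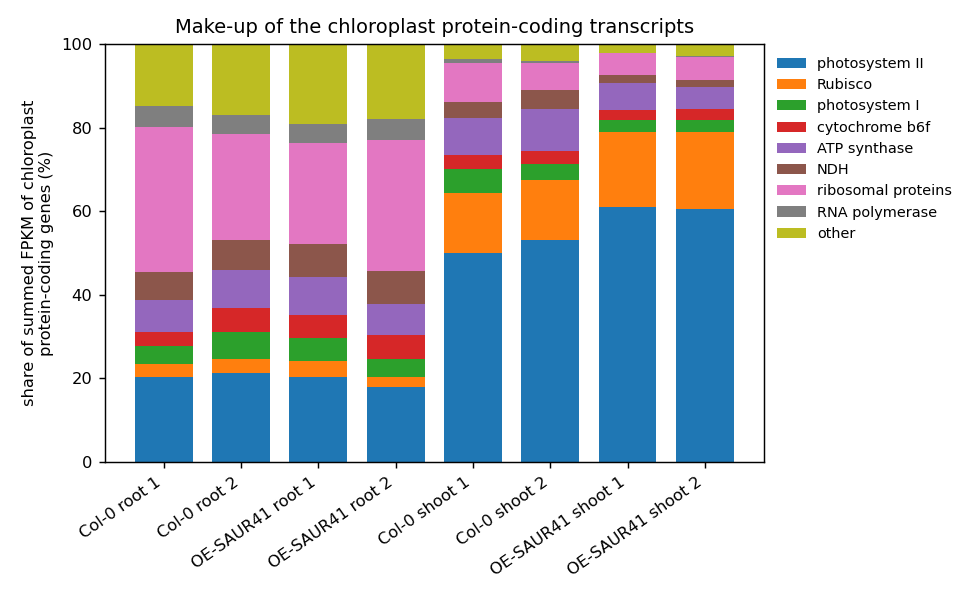
Share of the summed FPKM of the 73 chloroplast protein-coding entries held by each complex, in percent, stacked to 100 for each of the 8 libraries. Photosystem II and Rubisco fill most of each shoot bar, and ribosomal proteins hold between 24.0% and 34.7% of the root bars against 5.06% to 9.30% of the shoot bars.

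The same comparison was tested in a fit in which the chloroplast genes of each library were first divided by their protein-coding sum, a setting chosen after seeing the data. All other genes kept their FPKM scale. The shares of all tested genes given here are thus on another scale, and cannot show whether the chloroplast counts are many or few. In Col-0, 32 chloroplast genes were then called higher in roots and 10 lower, against 53% and 13.2% of all tested genes. In OE-SAUR41, 46 were called higher and 11 lower, against 66.2% and 11.9%. In both genotypes 31 genes were called higher, among them all 4 rpo genes, accD, clpP1, matK, ycf1 and both copies of ycf2, and 9 were called lower, namely the 4 rRNA entries, psbA, psbB, psbC, psbK and rbcL. On this scale accD had log2 fold changes of 3.23 ± 0.33 in Col-0 and 3.38 ± 0.33 (SE) in OE-SAUR41, and rpoA had 2.65 ± 0.40 and 3.25 ± 0.40 (SE). When psbA and rbcL were left out of the sum, 21 genes were called higher and 16 lower in Col-0, against 53% and 13.2% of all tested genes, and 23 and 15 in OE-SAUR41, against 66.1% and 11.9%. Of these, 18 were called higher and 13 lower in both genotypes. Of the rpo genes, rpoA, rpoC1 and rpoC2 remained among the 18, while rpoB was not called in Col-0, at 0.80 ± 0.40 (SE, limma adjusted p = 0.109). Among the photosynthesis genes atpB, atpE, ndhK and psbD joined those called lower.

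Nuclear genes for plastid complexes and for the transcription and RNA of organelles gave a background for these values. Of all tested genes 13.2% were called lower and 52.7% higher in Col-0 roots, and 11.8% lower and 66% higher in OE-SAUR41 roots. All 13 tested nuclear proteins of the plastid ribosome were lower in roots in both genotypes, with median log2 fold changes of -4.30 in Col-0 and -4.25 in OE-SAUR41, and among them RPS9 had -4.41 and -4.63. All 25 tested nuclear subunits of the photosynthetic complexes were lower too, with medians of -7.15 and -7.31, led by the Rubisco small subunit genes RBCS3B at -9.82 and -10.61 and RBCS2B at -9.66 and -10.07. Of the 17 RNA stability, processing and editing factors, 11 were called lower and 0 higher in Col-0, and 7 lower and 1 higher, CRR2 at 1.42, in OE-SAUR41. Their largest difference was that of CSP41A (AT3G63140), a chloroplast RNA-binding protein, with between 1.04 and 1.67 FPKM in roots and between 327 and 453 FPKM in shoots. Of the 13 proteins that associate with the plastid-encoded RNA polymerase, 8 were called lower in Col-0 and 4 in OE-SAUR41, led by PTAC7 at -3.38 and -2.50 and TRX z at -2.92 and -2.83, and 0 were called higher. Among the 9 sigma factors and phage-type polymerases, 3 were called higher and 3 lower in Col-0, and 3 higher and 2 lower in OE-SAUR41. The sigma factors SIG4 at -3.28 and -2.98 and SIG2 at -2.71 and -2.67 were lower in roots in both genotypes. SIG2 (AT1G08540) had 4.81, 3.65, 4.50 and 3.94 FPKM in roots and between 19.6 and 55 FPKM in shoots. The sigma factor SIGE (AT5G24120) was higher, with 8.82, 8.41, 9.56 and 6.06 FPKM in roots and 5.30, 1.44, 1.99 and 1.72 FPKM in shoots. The other genes called higher, AT1G68990 and AT5G15700, encode organelle phage-type polymerases, and the organelle that each serves was not examined. The gene of a plastid phage-type polymerase, SCA3 (AT2G24120), was called in neither genotype.

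In shoots, limma called 0 of the 75 chloroplast genes between OE-SAUR41 and Col-0, with 11 at an unadjusted p under 0.05, and 0.0201% of all tested genes were called. The smallest adjusted p belonged to ndhK, with a value of -1.68 ± 0.30 (SE, limma adjusted p = 0.121). The fit shares a residual variance per gene over all libraries, so the spread between root replicates enters these SEs and p-values. A fit of the shoot libraries alone called 0% of all tested genes. The values lay mostly on 1 side, with 69 of 75 fold changes negative and a median of -1.14, where the median of all tested genes was -0.32. Both OE-SAUR41 shoots lay below both Col-0 shoots for 49 of the 77 genes, against 32.5% of all tested genes, and above them for 0 of 77, against 7.26%. With TMM scaling and quantile normalization the chloroplast median was -0.82 and -0.67, and that of all genes -0.02 under both. With 1 library left out the chloroplast median ranged from -1.34 to -0.54. Without Col-0 shoot replicate 2, 15 chloroplast genes were called lower, where 45.8% of all tested genes were, and without Col-0 shoot replicate 1, 1 was called lower, where 0.886% of all were. The share of chloroplast genes called without replicate 2 was thus below that of all genes.

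The lower values in OE-SAUR41 shoots were spread over the complexes. All 6 ATP synthase genes and 11 of 12 NDH entries lay below Col-0 without overlap. The gene atpA, for example, had 38.8 and 25.4 FPKM in Col-0 shoots against 8.63 and 6.80 FPKM in OE-SAUR41 shoots, at -1.90 ± 0.82 (SE, limma adjusted p = 0.357). The gene ndhC had 8.45 and 7.57 FPKM in Col-0 against 2.82 and 0.263 FPKM in OE-SAUR41, at -2.03 ± 0.61 (SE, limma adjusted p = 0.273), and ndhI had -2.24 ± 0.69 (SE, limma adjusted p = 0.280). Of the RNA polymerase genes, rpoB, rpoC1 and rpoC2 lay below without overlap, and rpoA overlapped, with 6.61, 2.15, 0.443 and 2.33 FPKM. For rpoB the Col-0 replicates themselves were far apart, at 5.80 and 0.700 FPKM against 0.403 and 0.171 FPKM in OE-SAUR41. By contrast psbA and rbcL had fold changes of -0.26 ± 0.84 and -0.25 ± 0.68 (SE), rrn16 copy 1 had -0.20 ± 0.66 (SE) and rrn23 copy 2 had 0.12 ± 0.62 (SE). These SEs include the spread of the root replicates, which for psbA was wide, at 14.6 and 105 FPKM in Col-0 roots. In shoots psbA had 787 and 589 FPKM in Col-0 against 572 and 561 FPKM in OE-SAUR41. The signs of psbA, rbcL and rrn16 copy 1 turned positive with TMM scaling, and that of rrn23 copy 2 turned negative with quantile normalization. The most positive values were those of psbE, a subunit of cytochrome b559, and rps18, at 0.14 ± 0.52 and 0.35 ± 0.85 (SE). As shares of the protein-coding sum, psbA, rbcL, psbE and ycf3 were larger in both OE-SAUR41 shoots than in both Col-0 shoots, 38 entries were smaller and 31 overlapped. The larger shares of psbA and rbcL lower those of the other entries, so these counts are not independent results and have no background.

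**Figure D5:**
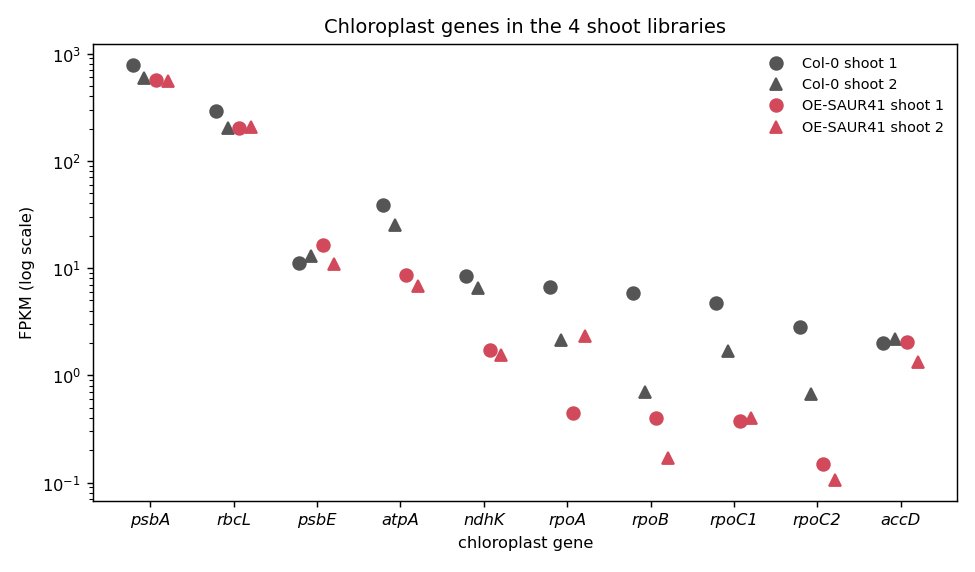
FPKM, on a log axis, of 10 chloroplast genes in the 2 Col-0 shoot libraries (grey) and the 2 OE-SAUR41 shoot libraries (red), with circles for replicate 1 and triangles for replicate 2. For psbA, rbcL, psbE and accD the genotypes lie close together, although both OE-SAUR41 points of psbA lie below both Col-0 points. The same order holds with a wider gap for atpA, ndhK, rpoB, rpoC1 and rpoC2. For rpoB the Col-0 points are as far apart as 5.80 and 0.700 FPKM.

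Between the genotypes in shoots, the medians of 5 nuclear lists lay on both sides of the median of all tested genes, -0.32. In shoots, the smallest limma adjusted p between the genotypes lay between 0.285 and 0.378 in each of the 5 nuclear lists, so that no member was called. The median log2 fold change came to 0.02 for the nuclear photosynthetic subunits, -0.19 for the nuclear proteins of the plastid ribosome, -0.54 for the sigma factors and phage-type polymerases, -0.64 for the RNA factors and -0.83 for the polymerase-associated proteins, where all 13 were negative. In these last lists Col-0 shoot replicate 1 was often far above replicate 2. PTAC14, for example, had 29.7 and 4.74 FPKM in Col-0 shoots against 7.21 and 6.83 FPKM in OE-SAUR41 shoots. This order is not particular to the lists, as nuclear genes at large had a median ratio of replicate 2 to replicate 1 of 0.583 in Col-0 shoots. The part of Col-0 shoot replicate 1 in the chloroplast values was not tested beyond leaving it out.

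In roots, limma called 0 of the 75 chloroplast genes between the genotypes, with 1 at an unadjusted p under 0.05, and 0.00503% of all tested genes were called. The median log2 fold change came to 0.20, with 55 values positive, and it moved to -0.77 without Col-0 root replicate 1, to 1.06 without Col-0 root replicate 2 and to -0.45 without OE-SAUR41 root replicate 2. The OE-SAUR41 libraries lay between or beside the Col-0 libraries for 76 of the 77 genes. The gene ndhE was the exception, with 0.288 and 1.62 FPKM in Col-0 roots and 2.76 and 2.78 FPKM in OE-SAUR41 roots, where both OE-SAUR41 libraries lay above both Col-0 libraries, against 11.5% of all tested genes. Its log2 fold change came to 1.04 ± 0.42 (SE, limma adjusted p = 1.00). For 0 of 77 genes both lay below, against 19.6%. The next smallest p-values upward were those of ndhC and ycf3, at 0.79 ± 0.61 and 0.76 ± 0.56 (SE), and downward those of rpl33, psbZ and rps15, at -1.20 ± 0.84, -0.77 ± 0.76 and -0.61 ± 0.56 (SE), all with an adjusted p of 1.00.

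The difference of the genotype effect between shoots and roots was tested as an interaction, and limma called 0 of the 75 chloroplast genes, with 6 at an unadjusted p under 0.05, as it called 0% of all tested genes. The median was -1.08 for the chloroplast genes and -0.30 for all tested genes. The most negative tests were those of ndhK at -1.76 ± 0.43, ndhE at -2.23 ± 0.59 and ndhC at -2.82 ± 0.86 (SE), each with a limma adjusted p of 0.807. On the other side stood rpl33 at 0.67 ± 1.19 and rrn23 copy 1 and copy 2 at 0.37 ± 0.88 (SE), with limma adjusted p of 0.857 and 0.894. The sign of rrn23 copy 1 turned with quantile normalization. The gene ndhE was also the 1 gene that lay above Col-0 in OE-SAUR41 roots and below it in OE-SAUR41 shoots, where it had 4.07 and 7.93 FPKM in Col-0 against 1.60 and 2.33 FPKM in OE-SAUR41. Without Col-0 shoot replicate 2, 7 chloroplast genes were called lower, where 32.1% of all tested genes were, so this count is not particular to them.

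Levels were also summarised over runs of neighbouring genes, as a description. In the run rpoB, rpoC1 and rpoC2 the median level was 0.885, 5.57, 1.71 and 4.93 FPKM in roots and 4.67, 0.700, 0.378 and 0.171 FPKM in shoots. In the run atpI, atpH, atpF and atpA it was 1.45, 11.1, 3.09 and 9.49 FPKM in roots and 31.9, 23.9, 10.0 and 6.74 FPKM in shoots. These neighbours are known for being transcribed together, so their values are not independent. The run psbB, psbH, petB and petD held genes at different levels, with psbB at 46.0 FPKM and psbH at 4.27 FPKM in Col-0 shoot replicate 1.

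Several entries carry limits of their own. In the inverted repeat, 9 genes are listed in both copies. For rrn16, rrn23, ycf2, ycf15, ndhB and rps7 the copies were within 1% of each other in all 8 libraries, and for rpl2 and rpl23 within 3.01% and 6.90%. For rps12, whose first exon lies elsewhere on the genome and is joined by trans-splicing, the copies differed by up to 183%. The entries atpB and atpE, psbD and psbC, rps3 and rpl22, and the partial ycf1 copy with ndhF share a locus in the files. The strand setting of the counting is not stated, so reads from genes on opposite strands cannot be told apart. Of 78 protein-coding symbols in the reference gene table of assembly TAIR10.1, 64 were among the listed genes and 14 were not. All 14 span 159 bp or less, while the shortest protein-coding gene listed, psbK, spans 186 bp. No tRNA gene was listed under its own locus tag, against 37 in that table.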

How the data were processed

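Per the labels' protocols, TRIzol was used for RNA extraction and an Illumina HiSeq for sequencing of root and shoot parts. The authors deposited 1 table of FPKM values per library, per the file headers. The build is TAIR10, per the submitters' processing notes, and the aligner, the quantifier and strandedness were not given in the sources used here. All tables list no value of 0, so a gene missing from a library was taken as 0 FPKM. Depth is unknown. The 3 genes AT1G29930, AT2G01010 and AT3G41768, whose values looked like failed estimates, were left out of the tests and of the nuclear sum. They were kept in the summed FPKM of each library, from which the shares of all FPKM were taken. File starts count from 0, and 1 was added to each. The files held 0 columns of other samples.

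The 19863 genes that reached 1 FPKM in 2 or more of the 8 libraries were tested on log2(FPKM + 1). One limma 3.58.1 fit in R 4.3.3 covered all libraries with 4 group means and a mean-variance trend, with 4 residual and 3.53 prior degrees of freedom, and p-values were adjusted over all tested genes by Benjamini-Hochberg, with a threshold of 0.05. Exact permutation of 2 against 2 libraries gives no p under 0.333 and was not used.

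Named with values were psbA, rbcL, the rpo genes, clpP1, accD and the rRNA genes, the member with the highest mean of each complex, genes with 2 copies, and per comparison up to 8 called genes each way whose groups do not overlap, or the 3 with the smallest p each way where none was called. From each nuclear list up to 3 called genes each way were named, and some of these are not reported here. Genes that serve as examples outside this rule (psbK, atpA, atpB, atpE, psbH, rps16, PTAC14) were chosen after their values were seen. The genes and lists were chosen with earlier results of these data known. The alternatives were other pseudocounts and filters, quantile normalization, TMM scaling, rescaling to the nuclear sum, a gene length correction, no trend, library weights, the libraries of a comparison alone, a replicate block and leaving out each library.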

Additional observations from a re-analysis of the deposited data

How the results depend on the processing

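The cause of the changes given here was not tested. Depth is unknown, so low values carry an error that the files do not show. Rescaling the chloroplast genes to their coding sum, with or without psbA and rbcL in that sum, and fitting the root libraries alone with a replicate block were chosen after seeing the data, and the libraries of a comparison alone give no value for the interaction. In Col-0, root against shoot, 27 chloroplast genes were called, against 8 with library weights, 42 after rescaling to the coding sum and 17 to 35 with 1 library left out. The median of -1.12 became 0.56 after rescaling, 0.0083 after rescaling outside psbA and rbcL, and -1.87 to -0.17 with 1 library left out. In OE-SAUR41, root against shoot, the 16 calls became 25 with quantile normalization, 25 with library weights, 38 with the libraries of the comparison alone, 57 after rescaling, 38 after rescaling outside psbA and rbcL, and 9 to 27 with 1 library left out. None of these calls was higher in roots with a pseudocount of 5 (11 calls) or no filter (12 calls). The median of 0.11 became -0.11 with a filter of 5 FPKM, -1.09 with quantile normalization, -0.80 with TMM scaling, -0.0053 with the gene length correction, 1.29 after rescaling, and -0.45 to 0.71 with 1 library left out. Between genotypes, the root median of 0.20 became -0.045 under both rescalings and -0.77 to 1.06 with 1 library left out. After rescaling outside psbA and rbcL, the shoot median of -1.14 became -0.18 and the interaction median of -1.08 became -0.14. With 1 library left out the shoot median ranged from -1.34 to -0.54 and the interaction median from -2.01 to -0.19. The calls with 1 library left out ranged from 0 to 15 in shoots and from 0 to 7 for the interaction, the upper ends without Col-0 shoot replicate 2, where 49.8% and 34.8% of all tested genes were called. The coding entries alone took 0.300% and 0.178% of the summed FPKM in Col-0 shoots and 0.147% and 0.147% in OE-SAUR41 shoots, and against the nuclear sum the OE-SAUR41 shares were 1.87% and 1.85%.

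Single genes turned sign as follows. In shoots, OE-SAUR41 against Col-0, psbA became 0.17 with TMM scaling, 0.32 after rescaling and 0.86 after rescaling outside psbA and rbcL. Under the same settings rbcL became 0.19, 0.33 and 0.87, accD 0.054, 0.11 and 0.43, and rrn16 copy 1 0.23, 0.38 and 0.92. With quantile normalization accD became 0.22, rrn23 copy 1 -0.27 and rrn23 copy 2 -0.26, and the interaction of rrn23 copy 1 became -0.0075. With 1 library left out, shoot values ranged from -0.52 to 0.022 for rbcL, -0.45 to 0.044 for rrn16 copy 1, -0.13 to 0.37 for both copies of rrn23, -0.16 to 0.86 for rps18 and -0.12 to 0.41 for psbE. Interactions ranged from -0.70 to 1.44 for both copies of rrn23 and from -0.53 to 1.88 for rpl33, and rps15 in roots from -1.62 to 0.40. For root against shoot in Col-0, quantile normalization and TMM scaling gave -0.24 and -0.18 for rpoA, -0.80 and -0.63 for rpoC1, and -0.41 and -0.18 for rpoC2. Both rescalings gave 1.37 and 0.80 for rpoB and 1.31 and 0.52 for clpP1. With 1 library left out the ranges were -0.49 to 1.73 for rpoA, -1.28 to 0.72 for rpoB, -0.66 to 0.82 for rpoC1, -0.64 to 1.38 for rpoC2 and -2.33 to 0.39 for clpP1. In OE-SAUR41 clpP1 became -0.48 with quantile normalization and -0.58 with TMM scaling, and ranged from -0.077 to 1.46 with 1 library left out.

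Deviations of same-numbered libraries of the genotypes had correlations of 0.165 in roots and -0.0061 in shoots over the chloroplast genes, and 0.0763 and -0.0049 over all tested genes. A correlation over genes leaves out a shift that the genes share, so it could not show the common rise in root replicate 2. The labels name no shared batch, so the numbers were not taken as pairs, although most chloroplast genes were higher in replicate 2 of both root genotypes. With a replicate block the calls were 29 in Col-0 and 19 in OE-SAUR41 for root against shoot, and 0 in roots, in shoots and for the interaction, and 0 with the root libraries alone. The medians stayed at -1.12, 0.11, 0.20, -1.14 and -1.08.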
